A study of Homo sapiens with 8 samples.

Results

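The genes described here encode the proteasome and 2 families of ubiquitin enzymes, as measured in L363 cells treated with the IKKβ inhibitor MLN120B. They were chosen by symbol from the platform's gene annotation: symbols beginning PSMA, PSMB, PSMC, PSMD, PSME or UBE2, or USP followed by a number, without the immunoproteasome genes PSMB8, PSMB9 and PSMB10, and with values on at least 5 of the 8 arrays. The rule found 33 genes among 4050 named genes with that many values: 2 PSMA, 3 PSMB, 3 PSMD, 4 PSME, 9 UBE2 and 12 USP genes. No PSMC gene, which would encode an ATPase of the regulatory particle, was among them. 3 of the 33 carry a matching symbol but are no subunit or enzyme of these families: PSMA3-AS1, an antisense RNA gene, PSME3IP1, which encodes a partner protein of PSME3, and USP6NL, which encodes a regulator of Rab GTPases.

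L363 is an established human plasma cell line, which the labels give as multiple myeloma from bone marrow. Cells received 12.5 µM MLN120B for 8 h (2 samples), 12 h (3 samples) or 24 h (3 samples), and each sample was hybridised in Cy5 against Cy3-labelled DNA copies of RNA from cells given the solvent DMSO. A value is the log2 ratio of the 2 channels minus its array's median, so 0 marks the median feature. The ratio is likely MLN120B over DMSO: the labels give the dyes but not the order of division, and if it ran the other way every sign below would turn. All groups share the cell line, the dose and the DMSO comparison, and no array had the dyes exchanged. The labels name no separate cultures, so p-values reflect only how far these samples differ, which may be technical variation. A ratio holds no level, so the plasma cell label could not be checked against marker levels. All 9 plasma cell markers listed for that purpose had values on at least 5 arrays. So did all 9 listed T cell markers and 5 of 8 myeloid markers, so having values does not tell cell types apart. In a bulk sample, fewer cells of a type and less RNA per cell cannot be told apart.

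Ubiquitin is passed from an activating enzyme (E1) to a conjugating enzyme (E2, the UBE2 family) and, with a ligase (E3), to a target protein. Chains of ubiquitin send proteins to the proteasome, a barrel of α and β subunits (the 20S core, from PSMA and PSMB genes) capped by the 19S regulatory particle (PSMC and PSMD genes) or by activators (PSME genes), and ubiquitin-specific proteases (USP genes) take ubiquitin off again. NF-κB signalling uses this machinery at several steps: IKKβ marks the inhibitor IκBα, which is then ubiquitinated and destroyed by the proteasome. Plasma cells make large amounts of antibody and depend on the proteasome, the target of standard myeloma drugs.

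Genes of the 3 groups averaged near the array median, and none passed the test in any comparison. Of the 33 genes, 27 had at least 2 values at each time and were tested with limma among 5411 rows. Over the 3 times 11 of the 27 had a mean above 0 and 16 below, against 48.4% of all tested rows above 0, and the median of the 27 was -0.039 against -0.0077 for all rows. The sizes of the mean changes ran from 0.031 to 0.47, and 26 of 27 were under 0.25. limma called 0 of the 27 after Benjamini-Hochberg adjustment over all rows, against 0.0% of all rows, and 1 at an unadjusted p under 0.05 (USP48), against 3.4% of all rows. The smallest adjusted p of the 27 was 0.869.

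The 95% intervals show how precisely these means were measured. Those of the 27 tested genes lay within 1 log2 unit, or 2-fold, on either side of 0. In the fit on rows with at least 5 values, the intervals of 4 of the other 6 genes reached past it: PSMD3 to 1.62, USP6NL to 1.42, USP22 to 1.07 and USP33 to 1.04. Among the 27 tested genes the narrowest interval, that of USP9X, reached 0.26 on each side of its mean and the widest, that of PSMB4, 0.53. These intervals take the samples as independent, and a mean inside them was not shown to be 0.

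**Figure D1:**
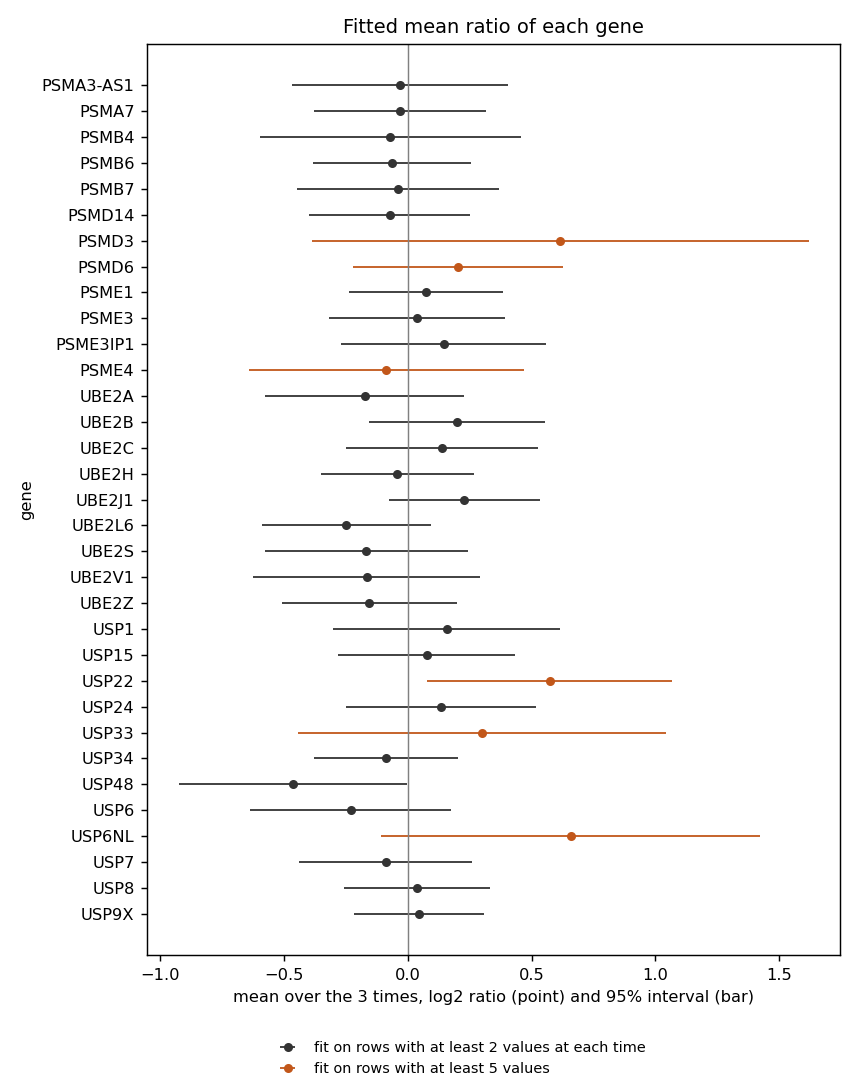
Mean log2 ratio over the 3 times (points) with 95% intervals (bars) for the 33 genes; black points come from the fit on rows with at least 2 values at each time, orange points from the fit on rows with at least 5 values. Of the 27 black intervals 26 include 0, all 27 lie between -1 and 1, and the orange interval of USP22 lies above 0.

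The spread of the ratios differed from array to array. The database identifiers in the labels form 3 runs of consecutive numbers, called run 1 (sample 3 at 12 h and 24 h), run 2 (sample 2 at 8 h, sample 1 at 12 h and 24 h) and run 3 (sample 1 at 8 h, sample 2 at 12 h and 24 h). The labels do not say what these runs were. The arrays of run 2 were the widest, with an SD over the genes described here of 0.81, 0.84 and 0.65. The SD was 0.45 and 0.31 on the arrays of run 1, and lay between 0.17 and 0.25 on those of run 3. Of the 21 genes with values on all 8 arrays, 20 had the value farthest from 0, in either direction, on an array of run 2, against 88.5% of all tested rows with 8 values. The NF-κB target gene NFKBIA, which encodes IκBα, lay below 0 on 8 of 8 arrays at -0.93 ± 0.14 (SE; limma adjusted p = 0.46), and NFKB2 on 8 of 8 at -1.31 ± 0.33 (adjusted p = 0.87). Markers of other blood cells had medians near those of all rows, 0.074 for 8 tested T cell genes and 0.084 for 5 myeloid genes. Single T cell values ran from -5.13 (CD3D, sample 2 at 8 h) to 1.07 (CD4, sample 1 at 12 h). Single myeloid values ran from -2.63 (CD68, sample 1 at 12 h) to 1.55 (ITGAM, sample 2 at 8 h). The median of the 9 plasma cell markers was 0.22. Of these 9, 2 were higher at an unadjusted limma p under 0.05, against 3.4% of all rows in either direction. After adjustment 0 of the markers passed, and their part in the results was not tested.

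**Figure D2:**
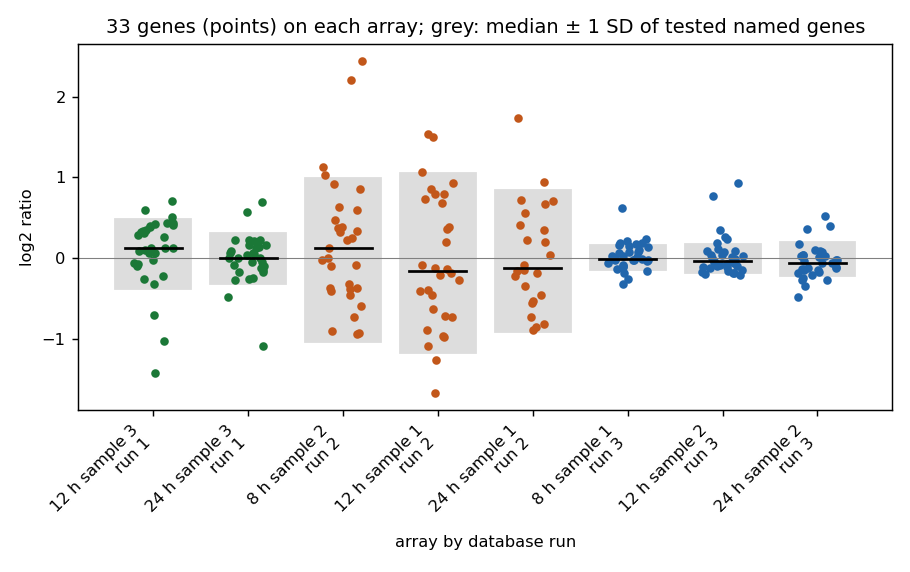
Log2 ratios of the 33 genes (points, coloured by database run) on each array, with their median (black line); the grey box spans 1 SD on either side of the median of all tested named genes. Most points lie inside the grey box on each array, and they scatter most widely on the 3 arrays of run 2, up to 2.45 for PSMD3 in sample 2 at 8 h.

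Core particle genes lay close to 0 in their means while single arrays differed. PSMB4, which encodes a β subunit without catalytic activity, was at -0.15 and 0.92 in samples 1 and 2 at 8 h, at -1.67, -0.21 and 0.29 in samples 1, 2 and 3 at 12 h, and at 0.23, -0.48 and 0.069 in samples 1, 2 and 3 at 24 h. Its highest and lowest values both came from run 2, and its mean was -0.070 ± 0.23 (SE, n = 8). PSMB6, which encodes the caspase-like catalytic subunit, was at -0.18 and -0.41 at 8 h, -0.083, -0.17 and 0.70 at 12 h, and -0.15, -0.14 and 0.16 at 24 h, in the same order. It lay below 0 on 6 of 8 arrays, both arrays of run 1 being the exceptions, with a mean of -0.064 ± 0.14. PSMB7, the trypsin-like catalytic subunit, had a mean of -0.039 ± 0.18 and ran from -0.97 (sample 1 at 12 h) to 0.59 (sample 3 at 12 h). PSMA7, an α ring subunit, had a mean of -0.032 ± 0.15 and lay below 0 on 6 of 8 arrays. PSMA3-AS1, with 6 values, stood at -0.031 ± 0.18; whether its feature reads its own strand or that of an overlapping gene is not known here.

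Of the regulatory particle, PSMD14 alone had enough values at each time for the test. PSMD14 encodes the metalloprotease that removes ubiquitin chains from proteins entering the proteasome, and its ratios were -0.0060 and -0.080 at 8 h, -0.63, 0.025 and 0.40 at 12 h, and -0.15, 0.085 and -0.25 at 24 h. The values fell on both sides of 0 at 12 h and 24 h, and the mean was -0.073 ± 0.14 (SE, n = 8; limma adjusted p = 0.92). PSMD3, a structural subunit, had 5 values, at 0.023 and 2.45 at 8 h, 0.37 and 0.78 in samples 1 and 2 at 12 h, and 0.043 in sample 3 at 24 h. It was the only gene of the 33 with the same sign on every array it was measured on, which 2.68% of the tested rows showed over 6 to 8 values. PSMD6, another structural subunit, lay above 0 on 6 of 7 arrays and ran from -0.10 to 0.79. Added to a fit on rows with at least 5 values, PSMD3 was at 0.62 ± 0.40 and PSMD6 at 0.20 ± 0.18, both with a limma adjusted p of 0.95, and on run 3 alone the mean of PSMD6 was -0.017.

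Of the activator genes, PSME3 had its lowest values at 24 h. PSME3 encodes PA28γ, a nuclear activator, and was at 0.026 and 0.39 at 8 h, 0.93, -0.0070 and 0.062 at 12 h, and -0.84, -0.25 and -0.17 at 24 h. All 3 values at 24 h lay below every value at 8 h and 12 h. On the 24 h values present, this held for 2 of the 27 tested genes and 2.59% of all tested rows. The 2 genes were PSME3 and USP1, which had 2 values at 24 h. Neither of the 2 PSME3 features showed this alone. Feature 1 was at 0.0060 in sample 2 at 24 h and -0.18 in sample 2 at 8 h. Feature 2 was at -0.17 in sample 3 at 24 h and -0.23 in sample 2 at 12 h. The difference of 24 h minus 12 h was -0.75 ± 0.36 (SE; limma adjusted p = 0.9999), and that of 24 h minus 8 h was -0.63 ± 0.40 (adjusted p = 0.99). Without sample 1 at 12 h the first was -0.45, and without sample 1 at 24 h the second was -0.42; without run 2 both were -0.24, and with array weights the first was -0.30. Of all rows 0.0% passed in either difference, and 0.684% and 0.813% had an unadjusted p under 0.05.

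PSME1, the interferon-induced PA28α, had a mean of 0.075 ± 0.14 (n = 8) and lay above 0 on 4 of 8 arrays. PSME4, the activator PA200, had 5 values, from -1.02 in sample 3 at 12 h to 0.32 in sample 2 at 8 h. PSME3IP1 lay between -0.15 and -0.044 on the 5 arrays of runs 1 and 3, and at 0.85 and 0.71 on the 2 of run 2 that measured it. Its mean of 0.14 ± 0.18 (n = 7) had the sign of run 2.

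**Figure D3:**
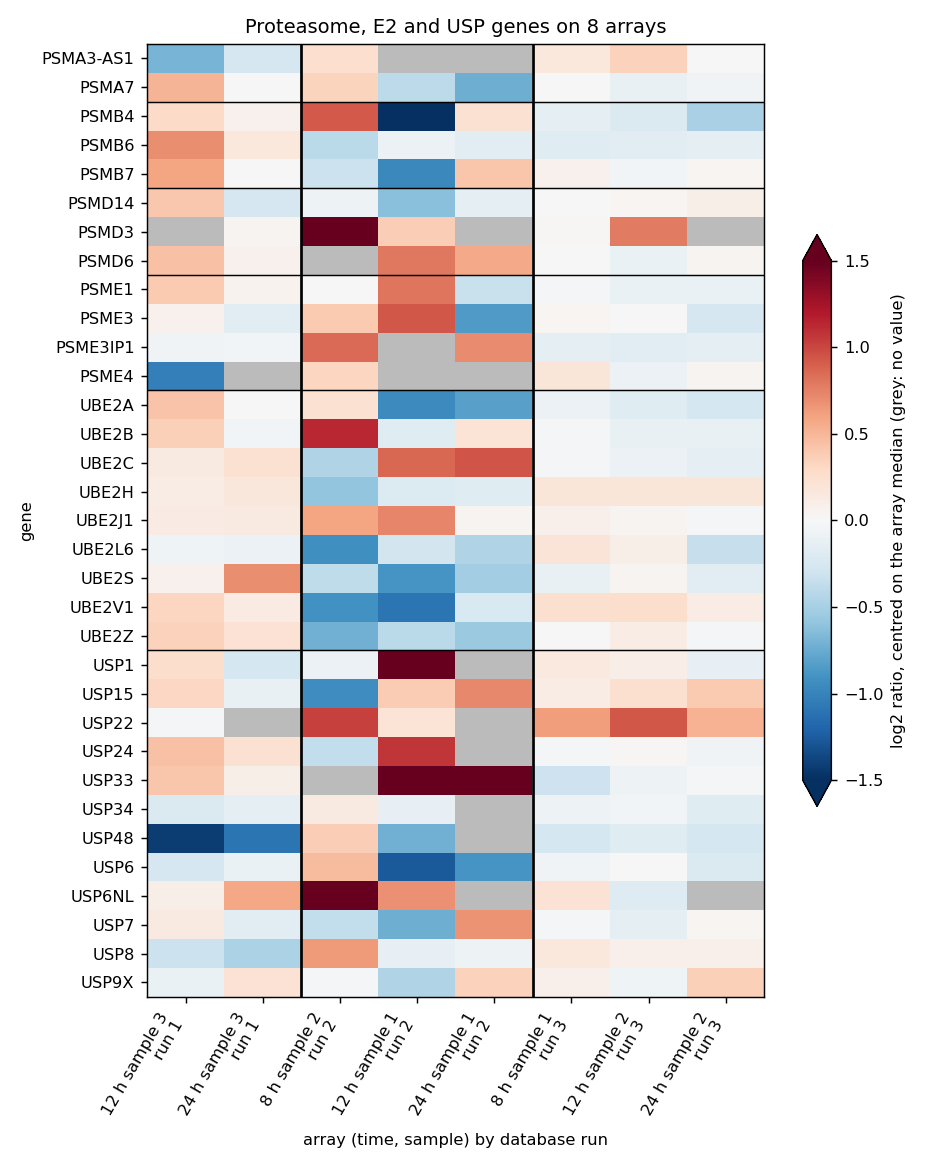
Log2 ratio of each of the 33 genes (rows, families separated by lines) on each array (columns, by database run), with colours saturating at 1.5 on either side of 0 and grey for no value. Columns of run 2 hold the deepest colours in both directions, and run 3 is the palest.

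Among E2 genes 3 of 9 had a mean above 0 and 6 below, with a median of -0.15, and 0 passed (0 at an unadjusted p under 0.05). UBE2J1, a membrane-bound E2 of endoplasmic reticulum-associated degradation, had the highest mean of the 9. It was at 0.074 and 0.59 at 8 h, 0.73, 0.038 and 0.13 at 12 h, and 0.043, -0.031 and 0.14 at 24 h. It lay above 0 on 7 of 8 arrays, with a mean of 0.23 ± 0.13 (SE, n = 8; limma adjusted p = 0.87). Without sample 2 at 8 h the mean was 0.14, and its run means were 0.13, 0.46 and 0.027 in runs 1, 2 and 3. The 4 features of UBE2J1 differed in sign, from -0.66 to 0.79 in sample 3 at 12 h and from -0.59 to 1.14 in sample 1 at 24 h. UBE2L6 charges ISG15, an interferon-induced modifier, and had the lowest mean, -0.25 ± 0.15 (limma adjusted p = 0.87). It was at 0.19 and -0.92 at 8 h, -0.27, 0.089 and -0.068 at 12 h, and -0.46, -0.35 and -0.087 at 24 h. All 3 values at 24 h lay below 0, and without sample 2 at 8 h the mean was -0.063.

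UBE2V1 and UBE2H kept 1 sign on the 5 arrays of runs 1 and 3 and had the other sign on all 3 arrays of run 2. UBE2V1 is an E2-like protein that lacks the catalytic cysteine and helps UBE2N build the lysine-63 chains used in IKK activation. Its ratios were 0.24 and -0.90 at 8 h, -1.09, 0.26 and 0.32 at 12 h, and -0.22, 0.11 and 0.13 at 24 h. Its mean over all arrays was -0.17 ± 0.20, and over the arrays of runs 1 and 3 it was 0.21 ± 0.091 (SD, n = 5). In sample 1 at 24 h its 2 features differed in sign, at -0.625 and 0.177. UBE2H, an E2 of the CTLH ligase complex, was at 0.18 and -0.59 at 8 h, -0.21, 0.19 and 0.11 at 12 h, and -0.18, 0.18 and 0.17 at 24 h. Its mean was -0.042 ± 0.14 over all arrays and 0.16 ± 0.033 (SD, n = 5) over runs 1 and 3. Its value in sample 3 at 12 h included a feature at 0.955 that had a value on that array only. The other features there ran from -0.342 to 0.415, so the sign on that array rested on 1 feature. Of the 21 genes with 8 values, UBE2V1 and UBE2H showed such opposite signs, against 3.44% of all tested rows with 8 values. Of those rows 17.4% kept 1 sign over runs 1 and 3. The part of the runs in these ratios was not tested, and UBE2V1 shares sequence with its close relative UBE2V2, which the features may also read.

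Means of the cell cycle E2 genes lay on both sides of 0. UBE2C, which starts chains for the anaphase-promoting complex, was at 0.86 and 0.95 in sample 1 at 12 h and 24 h and between -0.45 and 0.23 on the other arrays, with a mean of 0.14 ± 0.17 (n = 8). UBE2S, which extends those chains, was lowest in sample 1 at 12 h, at -0.89, and highest in sample 3 at 24 h, at 0.70, with a mean of -0.17 ± 0.18. The closely related DNA repair enzymes UBE2A and UBE2B had means of -0.17 ± 0.18 and 0.20 ± 0.16. UBE2B rested on sample 2 at 8 h, where it was 1.13. It lay between -0.18 and 0.35 elsewhere, and its mean without that array was 0.0064. UBE2Z, which takes ubiquitin from the E1 enzyme UBA6, stood at -0.15 ± 0.16, below 0 on all 3 arrays of run 2.

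**Figure D4:**
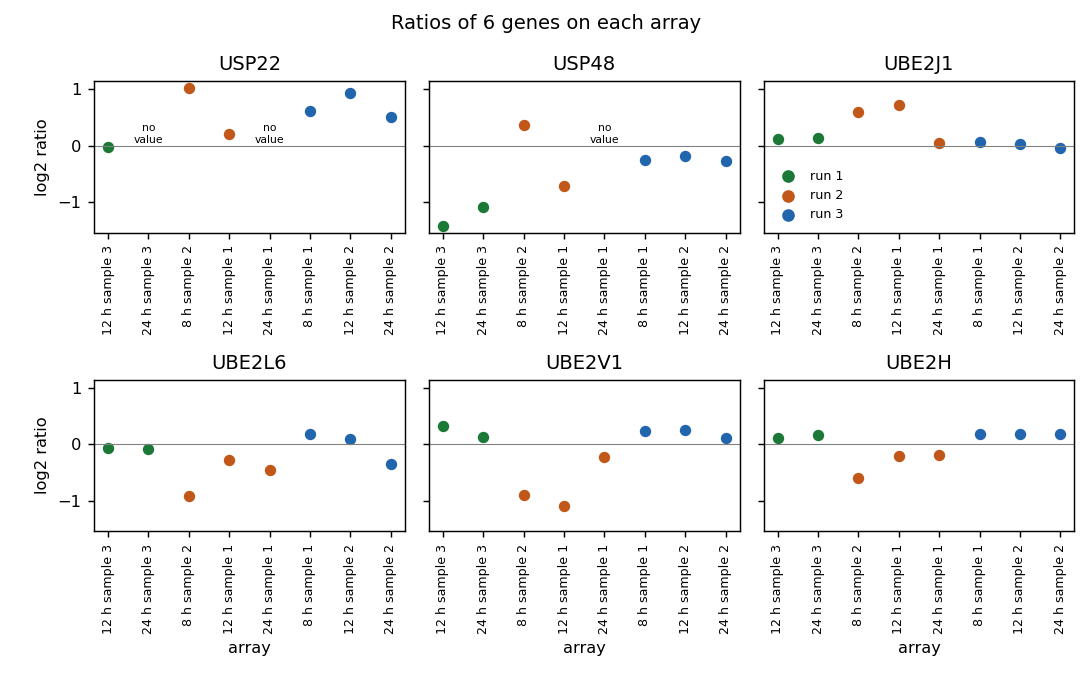
Log2 ratio of 6 genes on each array, coloured by database run. USP22 is above 0 on 5 of 6 arrays and USP48 below 0 on 6 of 7, while UBE2V1 and UBE2H lie below 0 on the 3 arrays of run 2 and above 0 on the other 5.

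Of the 9 USP genes in the main test, USP48 had the largest mean change over the 3 times and the smallest p. USP48 encodes a nuclear deubiquitinase that acts with the COP9 signalosome on the NF-κB subunit RelA. Its ratios were -0.26 and 0.37 at 8 h, -0.72, -0.18 and -1.42 at 12 h, and -0.27 and -1.09 in samples 2 and 3 at 24 h. It lay below 0 on 6 of 7 arrays, and the 2 lowest values were those of run 1. The mean was -0.47 ± 0.20 (SE, n = 7; limma adjusted p = 0.87), and 1.72% of all rows were lower at an unadjusted p under 0.05. The run means were -1.26, -0.17 and -0.24 in runs 1, 2 and 3. Its 2 features gave -1.47 and -1.37 in sample 3 at 12 h, and -0.26 and -0.26 in sample 1 at 8 h. In sample 2 at 8 h they gave 1.25 and -0.50, so the lone positive value came from feature 1. The values of -0.72 in sample 1 at 12 h and -1.09 in sample 3 at 24 h also came from feature 1 alone, as feature 2 had no value there.

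USP22 was above 0 on 5 of the 6 arrays that measured it. USP22 is the deubiquitinase of the SAGA coactivator complex and acts on histone H2B. It was at 0.63 and 1.03 at 8 h, 0.20, 0.94 and -0.019 at 12 h, and 0.52 in sample 2 at 24 h. The 3 arrays of run 3, the least spread ones, averaged 0.69, and the single array of run 1 gave the value nearest 0. With 1 value at 24 h it did not enter the main test. In the fit on rows with at least 5 values it was at 0.57 ± 0.20 (SE, n = 6), with a 95% interval from 0.079 to 1.07 and a limma adjusted p of 0.95. USP22 has 1 feature on the array, so no second feature could be compared.

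The remaining USP genes lay near 0 or rested on few arrays. USP34, which acts on axin in Wnt signalling, lay below 0 on 6 of 7 arrays but only between -0.22 and 0.13, with a mean of -0.088 ± 0.13. USP6 stood at -0.23 ± 0.18 (n = 8), with its lowest values, -1.26 and -0.89, on sample 1 at 12 h and 24 h; it arose from copies of USP32 and TBC1D3 and shares sequence with them. USP33, a partner of the VHL protein, was at 1.50 and 1.74 on those same arrays and between -0.32 and 0.41 on the other 5. USP6NL had 6 values, of which 2.20 in sample 2 at 8 h was the highest and -0.19 in sample 2 at 12 h the lowest. The 2.20 came from a feature with a value on that array only, where no other USP6NL feature was measured. The feature with 5 values had a mean of 0.28, so the fitted mean of USP6NL mixes features across arrays. USP7, the deubiquitinase of MDM2 and p53, stood at -0.090 ± 0.15, and USP8, an enzyme of endosomal sorting, at 0.038 ± 0.13.

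USP9X, which removes ubiquitin from the survival protein MCL1, was at 0.080 and -0.024 at 8 h, -0.45, -0.063 and -0.094 at 12 h, and 0.34, 0.36 and 0.22 at 24 h. All 3 values at 24 h lay above every other value. On the 24 h values present, this held for 1 of the 27 tested genes and 1.79% of all tested rows. The features did not share the pattern. In sample 2 at 24 h feature 4 was at 1.38, and the others with a value lay between -0.11 and 0.10. In sample 1 at 24 h feature 2 was at -0.30 and feature 3 at 1.01. The ratio at 24 h was 0.31 ± 0.19 (SE; limma adjusted p = 0.9996), and 24 h minus 12 h was 0.51 ± 0.26 (adjusted p = 0.9999). At 24 h 0.0% of all rows passed and 2.01% had an unadjusted p under 0.05.

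By time, limma called 0 of the 27 genes at 8 h, 12 h or 24 h, and 0 for the 3 differences between times, with 0.0% of all rows called in each. At an unadjusted p under 0.05 the counts were 0, 1 and 0 of 27 at 8 h, 12 h and 24 h, against 2.4%, 3.07% and 2.01% of all rows. They were 0 for 12 h minus 8 h, 24 h minus 12 h and 24 h minus 8 h, against 1.18%, 0.684% and 0.813% of all rows; 0.739% of rows were lower at 12 h than at 8 h at that p. The gene at 12 h was USP48, at -0.77 ± 0.30 (SE; limma adjusted p = 0.93), where 1.81% of all rows were lower at an unadjusted p under 0.05. Without sample 3 at 12 h it was at -0.45. Besides it, the smallest p at 12 h belonged to USP1, which acts on FANCD2 and PCNA in DNA repair, at 0.63 ± 0.30, and to USP24, at 0.51 ± 0.25. USP1 was at 1.54 and USP24 at 1.07 in sample 1 at 12 h; without that array they stood at 0.18 and 0.23. At 8 h the smallest p belonged to UBE2B (0.56 ± 0.31), USP8 (0.40 ± 0.26) and USP15 (-0.41 ± 0.31). All 3 rested on sample 2 at 8 h, without which they stood at -0.018, 0.16 and 0.11. USP15, which has been linked to IκBα through the COP9 signalosome, was at 0.11 and -0.94 at 8 h and at 0.39, 0.24 and 0.31 at 12 h. It differed between 24 h and 8 h by 0.75 ± 0.40 and between 12 h and 8 h by 0.73 ± 0.40 (adjusted p = 0.99 for both), and without sample 2 at 8 h these differences were 0.22 and 0.20.

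Several features read the same gene for 19 of the 33 genes, up to 6 for UBE2B and UBE2H. The SD between features was larger in run 2 than in run 3 for 16 of the 17 genes with several features of at least 5 values, and for PSMD14 it was 0.0064 in run 2 and 0.079 in run 3. For UBE2H the median SD between features with at least 5 values was 0.14 in run 3, 0.22 in run 1 and 0.61 in run 2. For USP15 it was 0.17 in run 3, 0.36 in run 1 and 1.25 in run 2. The value of 1.13 for UBE2B in sample 2 at 8 h averaged features from -0.62 to 4.05. For USP15 the 4 features in sample 2 at 24 h gave 0.23, 0.54, 0.27 and 0.54, all above 0. Its values in samples 1 and 3 at 12 h rested on feature 2. In sample 1 at 12 h that feature was at 2.15, and features 1 and 3 at -0.44 and -0.55. In sample 3 at 12 h it was at 1.22, and features 1, 3 and 4 at 0.022, 0.016 and 0.002.

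**Figure D5:**
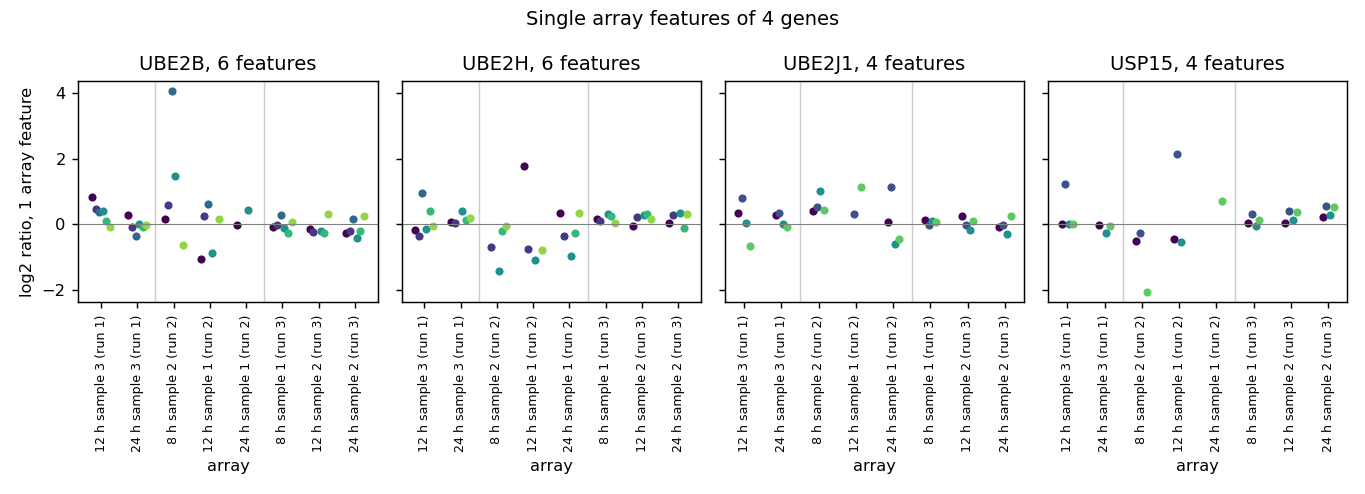
Log2 ratio of every array feature of UBE2B, UBE2H, UBE2J1 and USP15 on each array, 1 point per feature, coloured by feature, with runs separated by vertical lines. Points of a gene cluster within the arrays of run 3 and scatter on those of run 2, up to 4.05 for UBE2B.

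Promoter sequences from RefSeq (GRCh38.p14, 250 bases before to 50 after the gene start) were found by symbol for 24 of the 33 genes. Stretches of 5 of the 8 genes that hold a site of a factor tied to these pathways are shown, chosen after the matches were seen as examples of each site in subunit and enzyme genes; PSMA3-AS1, PSME4 and USP6NL are the others. The factors were chosen with the values known: the unfolded protein response element TGACGTGG, bound by XBP1 and ATF6, the antioxidant response element TGACNNNGC, bound by NFE2L1 and NFE2L2, which drive proteasome genes, and the κB site of NF-κB, each searched on both strands. The unfolded protein response element overlaps the antioxidant pattern where TGACGTGG is followed by C, as in UBE2J1. Stretches run 5′ to 3′ on the gene's strand, with the match in capitals; they lie at chr6:89352910-89352972 (minus strand, UBE2J1), chr14:24136072-24136152 (plus, PSME1), chr17:39980734-39980806 (plus, PSMD3), chr12:62260247-62260328 (plus, USP15) and chr16:8949813-8949894 (minus, USP7).
UBE2J1: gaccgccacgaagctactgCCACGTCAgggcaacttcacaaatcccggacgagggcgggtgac
PSME1: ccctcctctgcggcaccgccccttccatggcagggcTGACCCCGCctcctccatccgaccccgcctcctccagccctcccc
PSMD3: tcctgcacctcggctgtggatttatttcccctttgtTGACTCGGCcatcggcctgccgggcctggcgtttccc
USP15: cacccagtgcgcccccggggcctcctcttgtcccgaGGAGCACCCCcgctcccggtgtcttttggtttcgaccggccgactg
USP7: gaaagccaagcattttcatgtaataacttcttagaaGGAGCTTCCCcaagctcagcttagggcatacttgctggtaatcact

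The matches in UBE2J1, USP15 and USP7 read on the opposite strand. The unfolded protein response element occurred in 1 of the 24 windows, that of UBE2J1, and in 0.729% of all 35116 promoter windows in the table. The antioxidant element occurred in 5 of 24 (PSMA3-AS1, PSMD3, PSME1, PSME4 and UBE2J1) and in 13.3% of all windows, and the κB site in 4 of 24 (PSMA3-AS1, USP15, USP6NL and USP7) and in 11.3%. Genes with a κB site did not share a direction: the means were -0.031 for PSMA3-AS1, 0.077 for USP15, -0.090 for USP7 and, in the fit on rows with at least 5 values, 0.66 for USP6NL. A match is a description of the letters and does not show that a factor binds there.

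Other genes of ubiquitin metabolism, from lists of E1 enzymes, ligases, deubiquitinases with related proteases, and proteasome helpers, did not pass either. In limma, adjusted over all rows, 0 of 33 tested genes were called, and 2 were lower at an unadjusted p under 0.05, against 0.0% and 1.72% of all rows. Both were among 10 tested genes listed as proteases outside the USP family that remove ubiquitin or, like SENP3, SUMO. Of these 10, 3 had a mean above 0 and 7 below (median -0.16), against 48.4% of all rows above 0. TNFAIP3, the NF-κB-induced feedback enzyme A20, lay below 0 on 8 of 8 arrays at -0.84 ± 0.18 (SE; adjusted p = 0.87), and SENP3, a SUMO protease, on 8 of 8 at -0.31 ± 0.13 (adjusted p = 0.87). CYLD, which cuts lysine-63 chains, was at -0.33 ± 0.19.

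Of 11 tested ligase genes 5 had a mean above 0, with SKP2 at 0.36 ± 0.21 and ANAPC2 at -0.28 ± 0.25. The E1 genes UBA7 and UBA6 were at 0.25 ± 0.23 and -0.23 ± 0.25, and ISG15, the modifier that UBE2L6 carries, at -0.17 ± 0.13. Proteasome regulators PSMF1 and NFE2L2 were at 0.15 ± 0.16 and 0.11 ± 0.17, the shuttle RAD23B at 0.13 ± 0.13 and the chaperone BAG6 at -0.097 ± 0.26. The immunoproteasome gene PSMB9 lay below 0 on 7 of 8 arrays, at -0.50 ± 0.24, and PSMB10 on 4 of 8, at -0.087 ± 0.12.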

How the data were processed

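The authors' deposited log2 ratios of Cy5 over Cy3 (likely order), 1 column per array, were used; for background correction, spot filter, normalization and software the entry is "not given in the sources used here", and base 2 was read from the size of the values and assumed for all arrays. Arrays held 6344 to 13007 values of 15246 features; signal over background is not known, and precision is limited by having 8 arrays. Each array was centred on its median. Of the features, 10169 were annotated to 1 gene, 4 to several and 5073 to none listed; symbols were updated with RefSeq names (GRCh38.p14), 10128 by Entrez identifier, 17 by accession and 24 left unchanged. All features with the same symbol were averaged.

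limma 3.58.1 in R 4.3.3 (lmFit, eBayes) fitted a mean per time to 5411 rows with at least 2 values at each time, on all 8 arrays. Each mean was compared with 0. Variation among DMSO samples enters only through the ratios and was not estimated apart from that of the treated samples. Tests were 2-sided, adjusted by Benjamini-Hochberg over all rows at 0.05. In simulated ratios, 78% of 200 rows changed by 1 log2 unit over the 3 times were recovered among 5411. Whether this share holds for the measured arrays was not tested. Their SD over features ran from 0.21 (sample 1 at 8 h) to 1.42 (sample 2 at 8 h). Among the measured rows, NFKBIA at -0.93 over the 3 times had a limma adjusted p of 0.46. Python 3.11.15, pandas 2.3.3 and matplotlib 3.10.9 made tables and plots.

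Genes and lists were chosen with earlier results of these data known. The named genes were the members of each family with the largest mean change (3, or 5 for UBE2 and USP), the 3 with the smallest p in each contrast, those with 1 sign on every array, those of the role lists, and 2 per pathway list; USP22, USP33, USP6NL, USP34, UBE2H, UBE2Z, PSMD6, PSME4 and SENP3 were named after their values were seen. Sample numbers at 12 h and 24 h pair: deviations from the time means of the 3 same-numbered pairs, which share a database run, correlated at 0.20, 0.26 and 0.29. Sample numbers at 8 h do not pair with the later ones, at -0.21 and -0.32 with 12 h and -0.15 and -0.19 with 24 h. Paired by database run, samples 1 and 2 at 8 h correlated at 0.32 and 0.21 with 12 h and at 0.19 and 0.15 with 24 h. With 2 arrays at 8 h the deviations mirror each other, so pairs by number and by run give the same sizes with opposite signs. The alternatives tried are given with their effects at the end.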

Additional observations from a re-analysis of the deposited data

How the results depend on the processing

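None of the tested genes of these families passed in any of the 7 contrasts under 23 alternatives; over all fits of the 33 genes, the smallest adjusted p was 0.17 (UBE2B at 8 h without sample 1 at 8 h). Over the 3 times, limma called 0 of all rows on the reported setting, 50 without sample 1 at 8 h, 31 without run 3, 6 with the run as a fixed block, 3 on rows with at least 5 values, 2 after quantile normalization and 1 without sample 3 at 12 h. Of the 27 means over the 3 times, 10 kept their sign under every alternative. The cause of the changes below was not tested. On the values as deposited, where the median of all rows is -0.12, the genes' medians were -0.16 over the 3 times, -0.25 at 12 h, -0.16 at 24 h and -0.16 for 12 h minus 8 h, and means turned for PSME1 (-0.054), PSME3 (-0.091), USP15 (-0.052), USP8 (-0.091) and USP9X (-0.085). After quantile normalization the medians were 0.067 at 12 h and -0.15 for 24 h minus 12 h, and the sign turned for PSMA3-AS1 (0.041), PSMB7 (0.049), PSME3 (-0.047), PSME3IP1 (-0.037), UBE2H (0.13) and UBE2V1 (0.076); after scale normalization it turned for the same 6, at 0.019, 0.033, -0.030, -0.019, 0.10 and 0.074. With array weights the 12 h minus 8 h median was 0.11, and PSMA3-AS1 (0.033), PSMA7 (0.058), PSMB4 (0.0094), PSMB7 (0.0040), UBE2C (-0.047) and UBE2H (0.030) turned. With the database run as a fixed block the medians were -0.00039 at 24 h and -0.016 for 24 h minus 8 h. With it, and with the sample number as a replicate block, PSMA7 (0.032), PSMB4 (0.0094), PSMB7 (0.010) and USP8 (-0.0040) turned; the sample number as a block called 0 genes. For 24 h minus 12 h, where the run and the sample number pair the same arrays, both blocks left PSME3 at -0.75 and USP9X at 0.51, with an adjusted p of 0.98 for each with the run, and neither block called them. On rows with values on all 8 arrays the 24 h minus 8 h median was 0.067.

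Without run 2 the medians were 0.082 at 12 h and -0.14 for 24 h minus 12 h, and the means over the 3 times turned for PSMA7 (0.055), PSMB6 (0.030), PSMB7 (0.12), PSMD14 (0.041), PSME3 (-0.052), PSME3IP1 (-0.11), UBE2H (0.17), UBE2S (0.070), UBE2V1 (0.22), UBE2Z (0.11) and USP8 (-0.053), as did UBE2B (-0.018) and USP15 (0.11) at 8 h. Without run 3 PSMA7 (0.0097), PSMB4 (0.13), USP15 (-0.095) and USP9X (-0.0044) turned, and without run 1 PSMA3-AS1 (0.19). With 1 array left out, 42 of 45 gene values, over all contrasts in which a gene is named, moved by over 1.5 times or changed sign. Means over the 3 times that changed sign ranged from -0.21 to 0.15 for PSMA3-AS1, -0.12 to 0.046 for PSMA7, -0.25 to 0.12 for PSMB4, -0.16 to 0.10 for PSMB7, -0.15 to 0.021 for PSMD14, -0.062 to 0.11 for PSME3, -0.020 to 0.31 for PSME3IP1, -0.17 to 0.086 for UBE2H, -0.36 to 0.025 for UBE2V1, -0.097 to 0.25 for USP15 and -0.040 to 0.12 for USP8; at 8 h UBE2B ranged from -0.018 to 1.13 and USP15 from -0.94 to 0.11, each changing without sample 2. The medians ranged from -0.14 to 0.082 at 12 h and from -0.11 to 0.15 for 12 h minus 8 h, with the high end without sample 1 at 12 h. USP48 kept its sign with 1 array left out, from -0.60 to -0.33 over the 3 times and from -1.07 to -0.45 at 12 h, and was at -0.22 without run 1. A lone array left at a time is assumed to vary like the others.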

Other observations

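A further 5 genes match the symbol rule but had values on fewer than 5 arrays. PSMB1, a β subunit of the core, had 4 values from -0.79 to 0.20, USP54 4 from -0.12 to 0.30 and USP25 4 from -0.80 to 1.68. USP47 had 3 values, of which 1.56 in sample 2 at 8 h was the highest, and USP12 had 2, at -0.41 and 0.084.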
